A study of Mus musculus with 14 samples.

Results

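The genes described here are the nuclear-encoded subunits of oxidative phosphorylation in mouse liver, with a few close relatives of these subunits. They were taken as every gene of the deposited gene table whose symbol begins with the family names of complex I (Nduf), complex II (Sdha to Sdhd), complex III (Uqcr), complex IV (Cox4 to Cox8) or the ATP synthase, complex V (Atp5). The pattern matched 81 of 17552 genes. A minimum of 100 counts over both groups was reached by 77 of the 81, and by 13291 genes of the whole table. The control group was made of 7 liver RNA pools from male C57BL/6 mice deficient in Apoe, which lack apolipoprotein E, on a Western diet. The erythrodiol group was made of 7 pools from mice of the same strain, sex and genotype, whose Western diet held erythrodiol, a triterpene of the olive, at 10 mg/kg. An age of 8 weeks and a feeding time of 8 weeks stand in the labels. A longer feeding time stands in the paper. Each pool held RNA of a few mice, and no mouse with an intact Apoe gene and no mouse on another diet was part of the comparison.

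In the inner mitochondrial membrane, complexes I and II pass electrons from NADH and succinate to ubiquinone, complex III passes them to cytochrome c, and complex IV passes them to oxygen. Complexes I, III and IV pump protons, and the ATP synthase uses the resulting gradient to make ATP. Complexes I, III, IV and V join a catalytic core to small accessory or supernumerary subunits that assemble or stabilise it, and complex II holds only catalytic subunits and membrane anchors. Hepatocytes are rich in mitochondria and depend on these complexes for gluconeogenesis, urea synthesis and fatty acid oxidation. The core proteins that the mitochondrial genome encodes were looked up under 26 symbols and none was found, so they were not analysed here.

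For genes, the deposited table holds 1 expected count per gene and group, the sum over the 7 libraries of that group. With 1 value per group there is no spread between pools, so no test was possible, and differences have no replicate check. The intervals given here are exact conditional intervals at 95% and cover counting error only. Each count was divided by the total of its group, 122889032 counts for control and 124686047 for erythrodiol. A gene is said to have fallen or risen where it differed by at least 1.5-fold, a log2 ratio of erythrodiol to control of at least 0.58 in size. Levels of different genes are compared per length, as counts per 1000000 counts of the group (CPM), divided by the deposited transcript length in kilobases.

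Control libraries held between 34856340 and 55244294 clean reads and gave between 9.12% and 17.3% of the reads of their group that mapped to genes. Erythrodiol libraries were more alike, with 47669656 to 48058606 clean reads and shares between 13.9% and 14.6%. Control pools therefore entered the control sum with unequal weight. Between 64.33% and 81.43% of clean reads mapped to genes in the control libraries, against 72.96% to 76.13% in the erythrodiol libraries. Apoe itself, the disrupted gene, was listed at 9403 control and 8293 erythrodiol counts, with no intact group to set them against. Hepatocyte markers were high in both groups, as the liver label requires. Alb, the gene of serum albumin, alone had 9898794 and 9665610 counts, and none of 7 hepatocyte markers was called, with a median log2 ratio of 0.15.

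With counts scaled by group totals, the genes that fell were small accessory or supernumerary subunits, and no nuclear-encoded subunit of a catalytic core fell. With the median log2 ratio of all genes set to 0 instead, the core subunit Ndufv2 of complex I passed 1.5-fold, at −0.59. Of the 77 genes, 17 fell, against 3.13% of all genes with at least 100 counts, and 0 rose, against 2.54%. Most are short, 54 of the 77 with a deposited length under 1000 bases, and of all genes that short 24.4% fell. The median log2 ratio of the 77 genes was −0.28, ranging from −1.37 to 0.36, where the median of all genes was 0.16. A total of 61 genes lay below 0 and 16 above. As a share of all counts, the 81 genes made up 1.06% in control and 0.927% in erythrodiol livers. Their summed level was 13165 CPM per kilobase for control and 10592 for erythrodiol, a log2 ratio of −0.31. Since these are bulk samples, fewer cells of a type and less RNA per cell cannot be told apart.

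**Figure D1:**
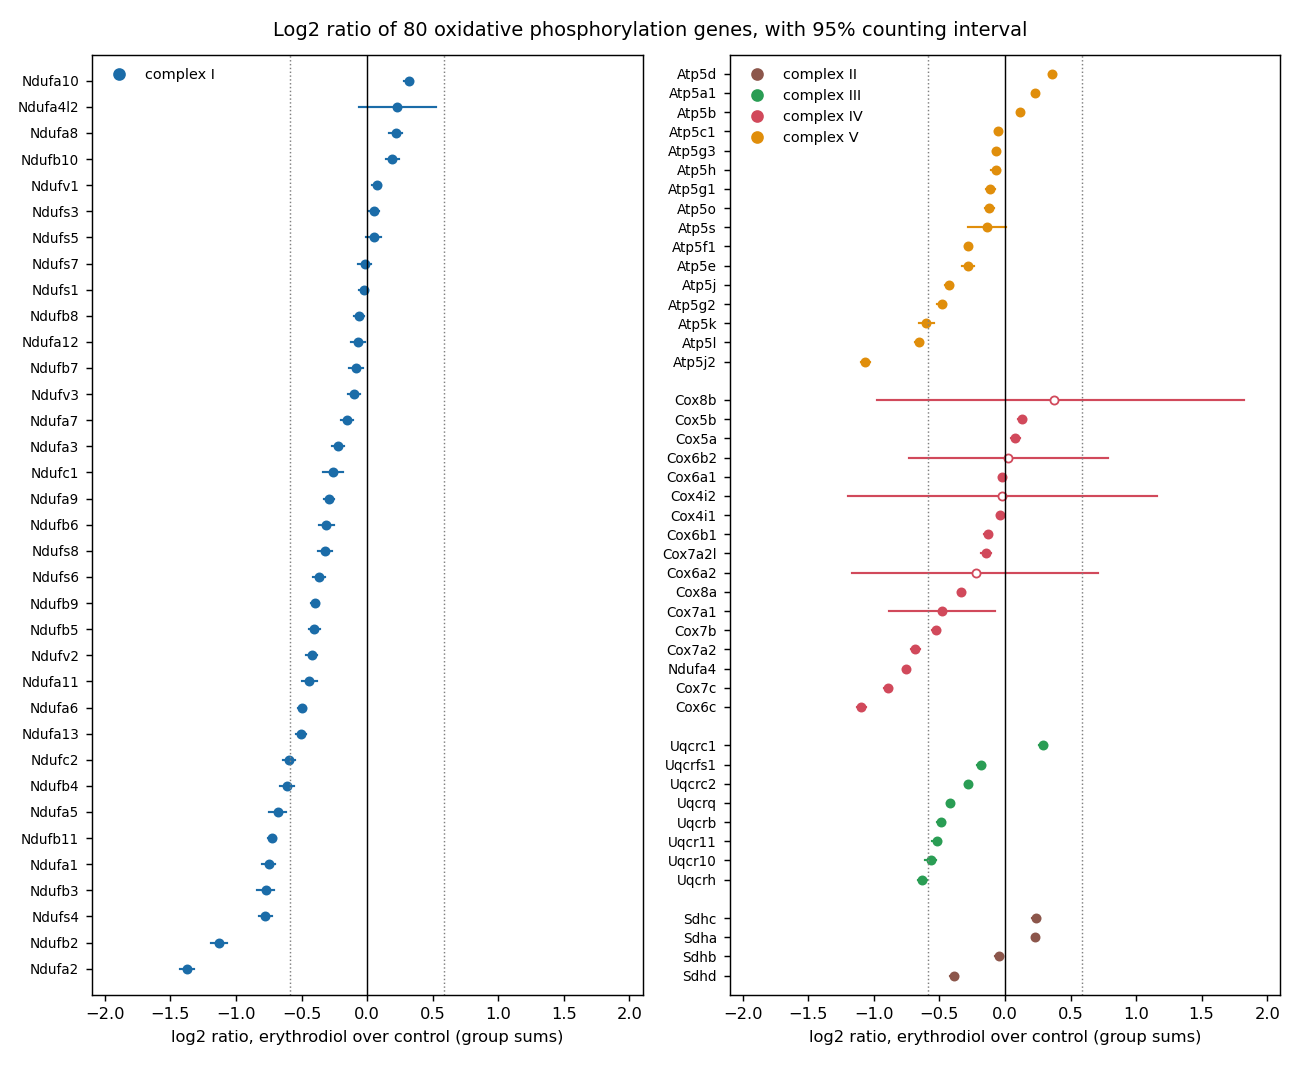
Log2 ratio of erythrodiol over control for 80 of the 81 genes, by complex. Points are group sums, bars are 95% counting intervals, open points are the 4 genes under 100 counts, and dotted lines mark 1.5-fold. A total of 17 genes lie left of the lower dotted line and none with at least 100 counts lies right of the upper one.

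In complex I, the NADH dehydrogenase, 9 of 36 genes fell, and all 9 were accessory subunits. Ndufa2, an accessory subunit with a thioredoxin-like fold, had 9370 control and 3667 erythrodiol counts, a log2 ratio of −1.37 with an interval from −1.43 to −1.32. It had the lowest ratio of the 77 genes. Ndufb2, an accessory subunit of the membrane arm (chr6:39592565-39599843 in GRCm38.p6), had 7104 and 3300 counts, a log2 ratio of −1.13. Ndufs4, without which mice develop a disease like Leigh syndrome, had 8404 and 4974 counts, a log2 ratio of −0.78. Ndufs4 was also the longest of the 17 genes that fell, with a deposited length of 1534 bases. The other accessory genes that fell were Ndufb3 at −0.78, Ndufa1 at −0.75, Ndufb11 at −0.73, Ndufa5 at −0.68, Ndufb4 at −0.61 and Ndufc2 at −0.60. Over the 28 accessory subunits the median log2 ratio was −0.38, and 24 of them lay below 0.

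The 7 core subunits of complex I, which carry the flavin, the iron-sulphur clusters and the ubiquinone site, are longer, with a median length of 1540 bases against 648 for the accessory subunits. None of them fell or rose, and their median log2 ratio was −0.02. Ndufv1, the flavin-carrying subunit that oxidises NADH, had 12388 and 13226 counts, a log2 ratio of 0.07. Ndufs1, with 13332 and 13283 counts, was at −0.03. Ndufv2, an iron-sulphur subunit, was the lowest of the core at −0.42, with 12040 and 9107 counts. Where the median of all genes was set to 0, the ratio of Ndufv1 turned negative, to −0.09, and that of Ndufv2 reached −0.59, past 1.5-fold.

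Some accessory subunits stood on the other side as well. Ndufa10, an accessory subunit of the matrix side, had 10173 and 12844 counts, a log2 ratio of 0.32 that was the highest in complex I. Ndufa8, at 0.22, and Ndufb10, at 0.19, both rich in cysteine and lying on the intermembrane side, followed among the accessory subunits. By control level per length the leading complex I genes were Ndufa6, at 289 control and 205 erythrodiol CPM per kilobase, Ndufb9, at 243 and 185, and Ndufb11, at 219 and 132. In the erythrodiol group Ndufa3, at 204 and 175, stood above Ndufb11. Summed over the 28 accessory genes, the level was 660% of that of the core genes in control and 524% in erythrodiol livers.

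Ndufb4 has copies in the genome that share its deposited protein annotation, and its counts were not whole numbers, since RSEM divides reads among similar transcripts. Ndufb4 itself had 7455.17 and 4947.13 counts. A copy on chromosome 15 listed as Gm3244 had 3919.33 and 2437.93 counts, a log2 ratio of −0.71. A second copy on chromosome 19 (chr19:25033108-25033578), listed as Gm3873 and named Ndufb4b in RefSeq, had 116.51 and 5.94 counts, a log2 ratio of −4.20 with an interval from −5.80 to −3.14. The division of reads among these genes is uncertain. Their sum was 11491 and 7391 counts, a log2 ratio of −0.66, past 1.5-fold as Ndufb4 was. The copy with the largest ratio, Ndufb4b, held a small part of these reads. The paper listed Ndufb4b among the genes down-regulated in its RNA sequencing of the pools. When single livers were assayed by quantitative PCR, it reported no significant change for this gene.

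Complex II, the succinate dehydrogenase, is made of nuclear-encoded subunits throughout, and none of its 4 genes fell or rose. Sdha, the flavoprotein, had 41425 control and 49341 erythrodiol counts, a log2 ratio of 0.23. Sdhb, the iron-sulphur subunit, had 16918 and 16657 counts, a log2 ratio of −0.04. The membrane anchors differed from each other. Sdhc had 16482 and 19675 counts, at 0.23, and Sdhd had 18370 and 14226 counts, at −0.39. Their levels per length were close together, between 114 and 127 in the control group and between 88.7 and 138 in the erythrodiol group. The summed level of the complex was 475 and 484 CPM per kilobase. The median of its log2 ratios was 0.09 and turned to −0.07 with the median of all genes at 0.

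In complex III, the cytochrome bc1 complex, 1 of 8 genes fell and 7 lay below 0. The gene that fell was Uqcrh, the acidic hinge protein that contacts cytochrome c1, with 18315 and 12013 counts, a log2 ratio of −0.63. The other small subunits were at −0.57 for Uqcr10, −0.52 for Uqcr11, −0.49 for Uqcrb and −0.42 for Uqcrq. The 5 small subunits thus had similar ratios, and their summed level was 1252 under control and 869 under erythrodiol diet. Uqcrb, at 330 and 235 CPM per kilobase, Uqcr11, at 282 and 196, and Uqcrh, at 265 and 171, had the highest levels per length. Uqcrfs1, the Rieske iron-sulphur protein, had 18879 and 16876 counts, at −0.18. The large core proteins differed, with Uqcrc1 at 18726 and 23230 counts and a log2 ratio of 0.29, and Uqcrc2 at 30979 and 25868 counts and −0.28.

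In complex IV, the cytochrome c oxidase, 4 of 13 genes with at least 100 counts fell. Ndufa4, named for complex I but counted here with complex IV, to which it has since been assigned, had 43248 and 25983 counts, a log2 ratio of −0.76. It had the highest level per length of all 81 genes in the control group, 715 CPM per kilobase, and 424 in the erythrodiol group. Cox6c had 22196 and 10539 counts, a log2 ratio of −1.10, and Cox7c had 26963 and 14755 counts, at −0.89. Both are single-pass membrane subunits. Cox7c stood 2nd by level among the 81 genes for control and 9th for erythrodiol, and Cox6c stood 9th and 24th. Cox7a2, the form of subunit VIIa found in most tissues, had 18303 and 11561 counts, at −0.68.

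The other subunits of cytochrome c oxidase ranged from −0.52 to 0.13, and none was called. Cox6a1, the third of the complex by control level at 427 CPM per kilobase and at 421 in the erythrodiol group, was at −0.02. Cox4i1, which contacts the catalytic core, had 27513 and 27199 counts, at −0.04. Cox5b and Cox5a, the subunits on the matrix side, had the highest log2 ratios of the complex, 0.13 and 0.08. Both ratios turned negative, to −0.03 and −0.08, with the median of all genes at 0. Cox6b1 was at −0.13, Cox8a at −0.33 and Cox7b at −0.52, the latter just short of 1.5-fold. Cox7a2l, a relative of Cox7a2 that joins complexes III and IV in supercomplexes, was at −0.15.

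Isoforms known from heart, skeletal muscle, lung or testis were barely present. Cox4i2 had 14 and 14 counts, Cox6a2 had 23 and 20, Cox6b2 had 31 and 32, and Cox8b had 9 and 12. These 4 genes are the members under 100 counts, and their intervals all spanned 0. Cox7a1, the muscle form of Cox7a2, had 125 and 91 counts and a log2 ratio of −0.48 with an interval from −0.88 to −0.08. Ndufa4l2, a paralogue of Ndufa4 known to respond to low oxygen, had 180 and 214 counts, at 0.23 with an interval from −0.06 to 0.52. The forms of most tissues, Cox4i1, Cox6a1, Cox6b1, Cox7a2 and Cox8a, had between 11561 and 28007 counts in each group.

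In complex V, 3 of 16 genes fell, and they were the 3 small membrane subunits e, f and g. Atp5j2, subunit f (chr5:145183704-145191541), had 23496 and 11397 counts, a log2 ratio of −1.06. Atp5l, subunit g, had 22486 and 14492 counts, at −0.65, and Atp5k, subunit e, had 5984 and 4009 counts, at −0.60. Subunits e and g are known for holding the dimer of the enzyme together. The summed level of these 3 genes was 868 and 494 CPM per kilobase. The F1 head and central stalk, where ATP is made, stood apart from them. Atp5b, the catalytic beta subunit, had 99524 and 109374 counts, at 0.12, the most counts of the 81 genes. Atp5a1, the alpha subunit, had 79515 and 94750 counts, at 0.23. Atp5d, the delta subunit of the central stalk, had 18894 and 24617 counts and a log2 ratio of 0.36, the highest of the 77 genes. Atp5c1, the gamma shaft, was at −0.05 and Atp5e, the short epsilon subunit, at −0.28. The level of the 3 small membrane subunits was 71.1% of that of the 5 genes of head and central stalk in control and 37.6% in erythrodiol livers. The ratio of Atp5b turned to −0.05 with the median of all genes at 0, and those of Atp5a1 and Atp5d stayed above 0, at 0.07 and 0.20.

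The 3 genes for the same mature c subunit of the proton-driven ring had unlike ratios. Atp5g3 had 29012 and 28068 counts, at −0.07, Atp5g1 had 15810 and 14857, at −0.11, and Atp5g2 had 15772 and 11459, at −0.48. The peripheral stalk was at −0.43 for Atp5j, −0.28 for Atp5f1, −0.12 for Atp5o and −0.07 for Atp5h, with none past 1.5-fold. Atp5s, the coupling factor B, had 798 and 737 counts, at −0.14.

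**Figure D2:**
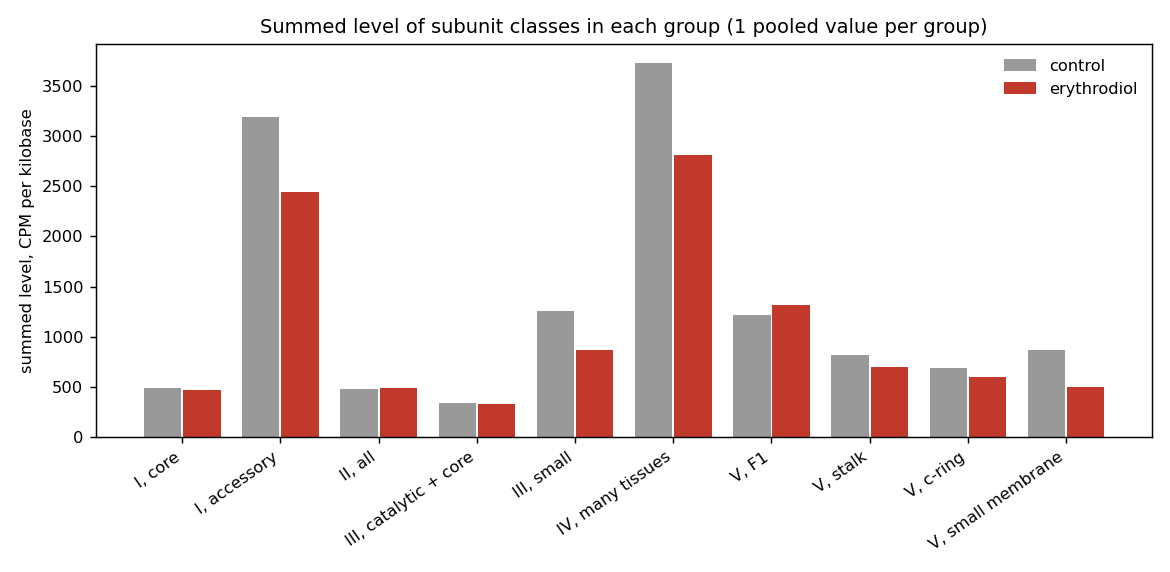
Summed level of the subunit classes, in CPM per kilobase, in the control (grey) and erythrodiol (red) groups, with 1 pooled value per bar and no error. The small membrane subunits of complex V went from 868 to 494 and the F1 class from 1221 to 1315.

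Over whole complexes, the median log2 ratio was −0.30 for complex I, 0.09 for complex II, −0.45 for complex III, −0.33 for complex IV and −0.13 for complex V. The summed levels had log2 ratios of −0.34, 0.03, −0.42, −0.40 and −0.21 in the same order. Complex II was the exception on both measures, with values close to 0, though its median lay below the 0.16 of all genes. It has only 4 genes, and their median length was 1232 bases, against 545 to 937.5 in the other complexes. The share of genes that fell was 25% in complex I, 0% in II, 12.5% in III, 30.8% in IV and 18.8% in V. Among all genes under 1000 bases it was 24.4%. At the edge of 1.5-fold, Ndufc2, Atp5k and Ndufb4 lay just inside, at −0.60, −0.60 and −0.61, and Uqcr10, Cox7b and Uqcr11 just outside, at −0.57, −0.52 and −0.52.

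Nuclear subunits that the symbol pattern leaves out were looked up by name. Usmg5 and 2010107E04Rik, small membrane subunits of the ATP synthase like those that fell, had 12464 and 7244 counts, at −0.80, and 8434 and 4622 counts, at −0.89, and both fell. Cyc1, cytochrome c1, was at −0.07 and Ndufab1, the acyl carrier of complex I, at 0.20. Cycs, the mobile carrier cytochrome c, had 22197 and 14700 counts and fell, at −0.62.

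The subunits that fell have short messages, and short genes in general were lower in the erythrodiol group. Of the 77 genes, 54 had a deposited length under 1000 bases, and 16 of these fell, against 24.4% of all 862 genes of such length with at least 100 counts. None of the 54 rose, against 1.74%. Of the 23 longer genes, 1 fell. The share of short members that fell was 29.6%, so it lay near that of short genes at large. Under 500 bases, 6 of 12 members fell, and 58.2% of the 67 other genes did, with medians of −0.58 and −0.62. Between 500 and 600 bases the medians were −0.33 for 17 members and −0.27 for 85 other genes, and between 600 and 800 bases −0.31 for 19 members and −0.29 for 256 others.

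The gap between members and other genes differed from class to class. Between 800 and 1000 bases the members lay higher, with a median of −0.03 for 6 members and −0.17 for 400 other genes, and 2 members below the median of the others. Between 1000 and 1500 bases the median was −0.15 for 9 members and −0.01 for 1331 other genes, with 7 members below the median of the others. From 1500 to 2000 bases it was −0.21 for 10 members and 0.07 for 1686 others, again with 7 below. From 2000 to 3000 bases the medians were 0.10 for 4 members and 0.14 for 3157 others, with 2 members below and 2 above. Among members between 1500 and 2000 bases, Ndufs4, Ndufv2, Uqcrq, Uqcrc2 and Atp5f1 had log2 ratios between −0.78 and −0.28. Across the 77 members, which share libraries and group totals, the log2 ratio correlated with log2 length at a Pearson's r of 0.41 and a Spearman's rho of 0.45. Across 13073 genes the values were 0.45 and 0.44.

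**Figure D3:**
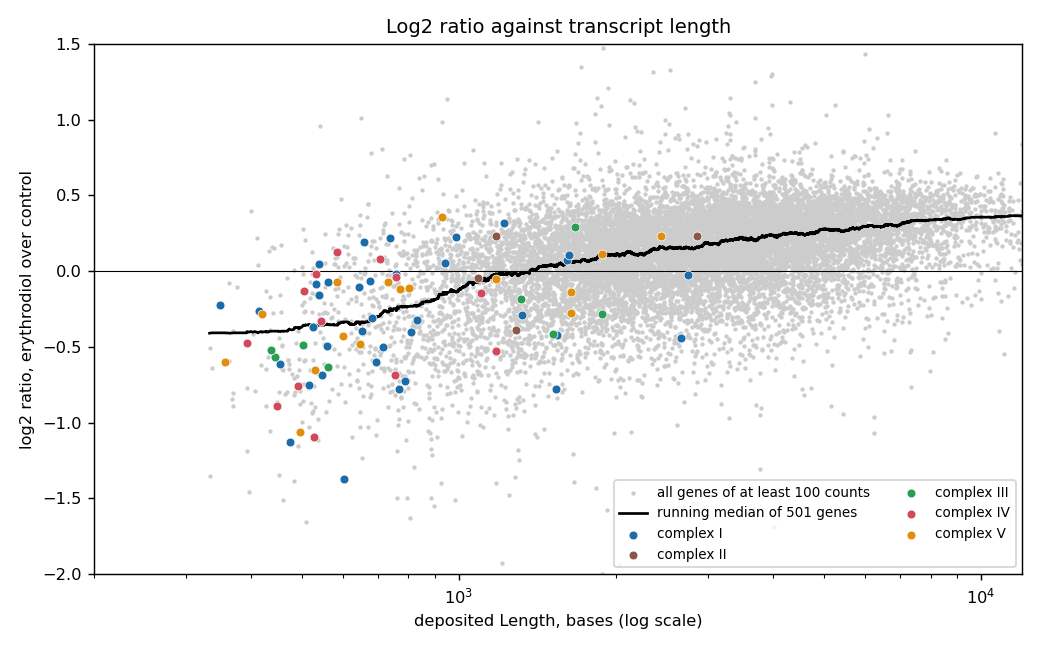
Log2 ratio of erythrodiol over control against deposited transcript length on a log scale, for all genes of at least 100 counts (grey) and the members by complex (coloured), with the running median over 501 genes. The axes leave out 105 of 13291 genes, and the running median goes from below 0 in short genes to above 0 in long ones.

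Each member was next set against the median of the 500 genes nearest to it in length. Only 67 other genes with at least 100 counts were under 500 bases, so the neighbours of the shortest members were mostly longer genes. Relative to these, the median over the 77 members was −0.11, with 43 genes below and 34 above. On this scale 6 members were at least 1.5-fold below, against 3.5% of all genes, and 0 were as far above, against 1.01%. Short genes passed this limit more often, with 75 of 862 genes under 1000 bases below it and 34 above. Of the 54 members of such length, 4 were below, a share near that of short genes at large. The 6 members, of any length, were Ndufa2 at −1.05, Ndufs4 at −0.81, Ndufb2 at −0.79, Cox6c at −0.76, Atp5j2 at −0.73 and Ndufa11 at −0.60. The deposited length of Ndufa11 is 2661 bases and that of its principal GENCODE transcript 545, and with the latter its relative value was −0.16. Complex III was below genes of like length in 7 of 8 genes, with a median of −0.21. The medians of complexes I, II, IV and V were −0.08, 0.05, −0.09 and −0.02. The values near 0 depended on the neighbours taken. With the 500 neighbours taken only from genes of similar count, the median over the members was −0.22. Those of complexes I to V were −0.23, 0.02, −0.46, −0.31 and −0.13 in order. These neighbours came from fewer genes and could lie farther off in length, so a difference in length can enter these values.

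Relative to the 500 genes nearest in length, the contrast between subunit classes was smaller in complexes I, III and V than in the plain ratios. The accessory subunits of complex I, of 648 bases at the median, had a median of −0.15 relative to like length, with 17 of 28 below. The core subunits, of 1540 bases, had a median of 0.01, with 3 of 7 below. All 5 small subunits of complex III and all 3 small membrane subunits of complex V lay below their 500 neighbours, with medians of −0.23 and −0.32. For the shortest of them these neighbours were mostly longer genes. The 67 other genes under 500 bases had a median log2 ratio of −0.62. Of the subunits that short, Atp5k, Uqcr10 and Uqcr11 lay above it, at −0.60, −0.57 and −0.52, and Atp5j2 below, at −1.06. On the relative scale the F1 head and central stalk had a median of 0.05, and the 2 core proteins of complex III one of −0.08.

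Highest above genes of like length stood Atp5d at 0.50, Cox5b at 0.46, Ndufb10 at 0.45 and Ndufa8 at 0.45. These are short genes that did not share the low ratios of other short genes. They also had high GC content, 61.1% in Atp5d, 56.0% in Cox5b, 55.5% in Ndufb10 and 54.4% in Ndufa8. Among members of lower GC content than the median of 52.1%, 12 of 38 fell and the median relative to like length was −0.24. Among the other 39, 5 fell and the median was 0.11. Values relative to like length correlated with GC content at r = 0.46 and rho = 0.50 across the 77 members, and at 0.25 and 0.27 across 13073 genes. Against neighbours in length and GC content together, 51 members lay below and 26 above, and 7 were at least 1.5-fold below.

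**Figure D4:**
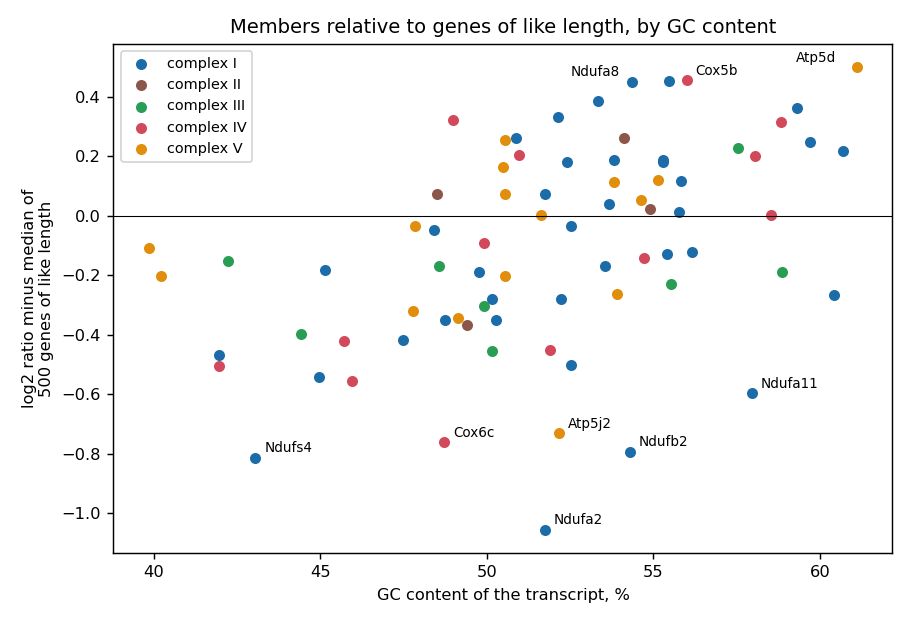
Log2 ratio of each member minus the median of the 500 genes of like length, against the GC content of its transcript in percent, coloured by complex. Ndufa2, Ndufb2, Cox6c, Atp5j2 and Ndufs4 lie lowest, at −0.73 or below, and Atp5d, the gene of highest GC content, lies highest at 0.50.

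Genes that act beside the complexes did not show the low ratios of the subunits to the same extent, although no test of the difference was possible. Of 48 assembly and inhibition factors with at least 100 counts, 5 fell, or 10.4% against 3.13% of all genes, and 0 rose, against 2.54%. Their median log2 ratio was −0.04. Those that fell were Coa6, Pet100 and Cox16, which serve the assembly of complex IV, at −0.90, −0.75 and −0.66, Sdhaf4, which matures the flavoprotein of complex II, at −0.83, and Uqcc2, which serves the synthesis of cytochrome b, at −0.62. Surf1 was at −0.04, Lrpprc, which stabilises mitochondrial messages, at 0.34 and Cox15, which makes heme a, at 0.38. Atpif1, the inhibitor of ATP synthase, was at −0.57. The factors were longer than the subunits, with a median length of 1360 bases against 707. Of those that fell, Coa6, Sdhaf4 and Uqcc2 were under 1000 bases, where 24.4% of all genes fell, and Pet100 and Cox16 were longer.

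None of the 13 genes of the tricarboxylic acid cycle fell or rose, and their median log2 ratio was 0.16. Ogdh, of the oxoglutarate dehydrogenase complex, was the highest at 0.54, with 21106 and 31239 counts, and Fh1, fumarate hydratase, the lowest at −0.42. None of 14 regulators of mitochondrial biogenesis was called either. Ppargc1a, the coactivator PGC-1 alpha, had 1064 and 1510 counts, at 0.48, and Nrf1, a factor that binds promoters of respiratory genes, had 934 and 1181, at 0.32. Tfam, which packages and transcribes mitochondrial DNA, was at −0.14. Relative to genes of like length, the medians of these lists were 0.11 and 0.09.

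Ribosomal proteins, which are also short and abundant, were set beside the subunits. Cytosolic ones were taken by symbols that begin with Rpl or Rps, a pattern that also matches the Rps6k kinases, and the longest matched gene had 7039 bases. Of 93 such genes with at least 100 counts, 33 fell, or 35.5% against 3.13% of all genes, and 1 rose. Their median log2 ratio was −0.34, and −0.17 relative to like length. Of 78 mitochondrial ribosomal genes, 5 fell and 0 rose, with medians of 0.01 and 0.02. The oxidative phosphorylation genes lay between these groups, and nearer to the cytosolic set, on both measures. The median lengths were 737 bases in the cytosolic set and 1056 in the mitochondrial one.

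**Figure D5:**
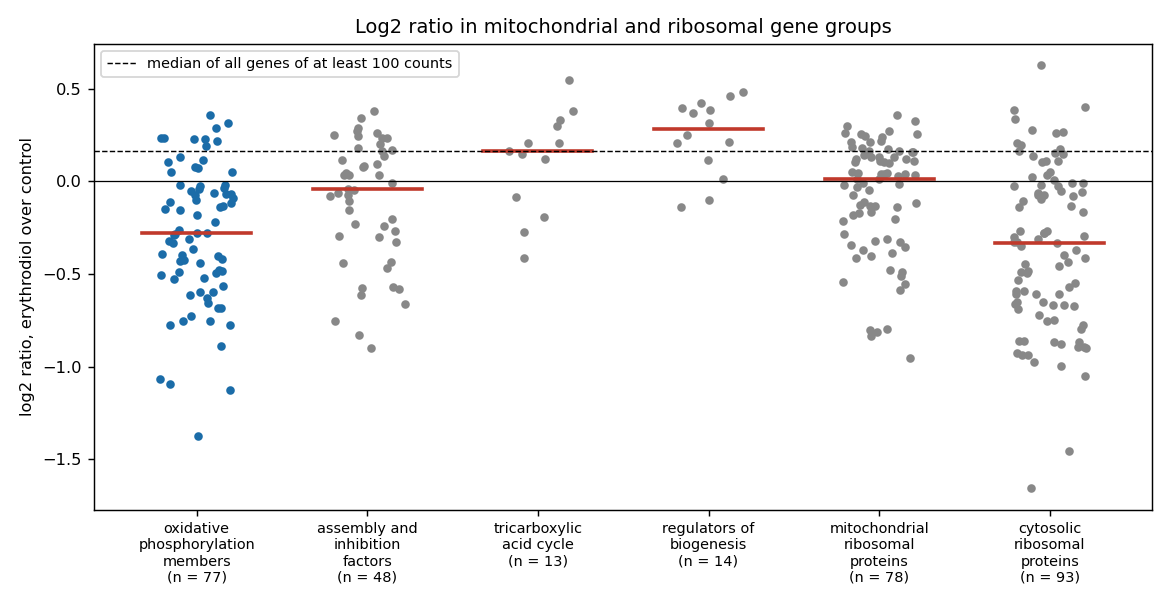
Log2 ratio of erythrodiol over control for genes of at least 100 counts in 6 groups, with the median of each group in red and that of all genes, 0.16, as a dashed line. The medians are −0.28 for the oxidative phosphorylation genes, −0.04 for assembly factors, 0.16 for the tricarboxylic acid cycle, 0.28 for regulators, 0.01 for mitochondrial and −0.34 for cytosolic ribosomal proteins. The cytosolic set was matched by symbol, by a pattern that also matches the Rps6k kinases.

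Markers of other cells differed by cell type. Of 6 Kupffer cell markers, 5 fell, against 3.13% of all genes with at least 100 counts, and all 6 lay below 0. Their summed counts were 106836 under control and 66670 under erythrodiol diet, with a median log2 ratio of −0.67. All 3 neutrophil markers with at least 100 counts fell, with 1517 summed counts over 5 markers for control and 570 for erythrodiol. Krt19 fell among 4 bile duct markers, at −0.89. None of 5 endothelial, 6 stellate cell and 5 lymphocyte markers was called. The part of these cells in the ratios of the subunits was not tested. Muscle markers were at trace level, 168 summed counts against 83, and the Ttn gene of titin was listed at 27 and 0 counts. Of 6 brown adipocyte markers none with at least 100 counts was called, and Ucp1, the defining uncoupling protein, had 5 and 18 counts. Markers of pancreatic acinar cells went different ways. Amy2a5 fell, with 124 and 23 counts, Cela1 had 1574 and 1113, at −0.52, and the trace markers Ctrb1 and Cpa1 had 8 and 42 counts and 2 and 15 counts.

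On the transcript level, 12 of the 81 genes held 16 of the coding transcripts that the authors assembled beyond the reference, a share of genes of 14.8% against 28.5% of the table. Counts were not whole in 6 members, Atp5f1, Atp5j, Ndufa13, Ndufb4, Ndufv3 and Uqcrc2, or 7.41%, against 19.2% of the table. The X-linked members Ndufa1, Ndufb11 and Cox7b, singled out after their values were seen, were all below 0, at −0.75, −0.73 and −0.52. Of the 77 members with at least 100 counts, 61 were below 0.

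Promoters of 67 members were found in the RefSeq table, each from 250 bases before to 50 after the gene start. Nuclear respiratory factor 1 is known to bind a palindrome made of GCGCATG overlapping its reverse complement. It was present in 5 of the 67 promoters, or 7.46%, and in 1.83% of 13766 promoters. GCGCATG alone, on either strand, was in 19.4% of members and 6.49% of all. The core AAGATGGCG of the YY1 site was in 10.4% against 2.70%, and followed by GC in 5.97% against 1.34%. CCGGAAG, bound by ETS factors such as GABP, was in 23.9% against 15.9%. TCAAGGTCA, the site of ESRRA, was in 2.99% against 0.378%, and GGGCGG, the SP1 box, in 40.3% against 59.3%. The YY1 forms overlap each other, as do those of nuclear respiratory factor 1, and a match is a description of letters and not a site.

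The windows below, of 100 bases each in GRCm38.p6, show the palindrome in capitals in the 4 promoters that hold it before the start. They are shown because the genes share the same 10 letters and yet differ in ratio. They are written 5′ to 3′ on the strand of the gene, the minus strand for Atp5g2 (chr15:102671048-102671147), Atp5k (chr5:108434400-108434499) and Cox6a1 (chr5:115349059-115349158), and the plus strand for Ndufa11 (chr17:56717662-56717761).
Atp5g2: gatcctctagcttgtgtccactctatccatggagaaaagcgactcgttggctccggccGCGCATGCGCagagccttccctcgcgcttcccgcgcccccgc
Atp5k: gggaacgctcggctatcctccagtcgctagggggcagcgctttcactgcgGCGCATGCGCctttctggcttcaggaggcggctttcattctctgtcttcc
Cox6a1: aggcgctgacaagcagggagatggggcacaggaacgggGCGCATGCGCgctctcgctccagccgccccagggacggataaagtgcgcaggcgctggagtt
Ndufa11: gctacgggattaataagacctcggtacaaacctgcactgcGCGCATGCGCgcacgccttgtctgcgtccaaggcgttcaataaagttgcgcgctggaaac

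The palindrome begins 42 bases before the start in Atp5g2, 50 in Atp5k, 162 in Cox6a1 and 60 in Ndufa11, and in Uqcrc1 it begins 31 bases after the start. Their log2 ratios were −0.48 for Atp5g2, −0.60 for Atp5k, −0.02 for Cox6a1, −0.44 for Ndufa11 and 0.29 for Uqcrc1. Members with and without it thus overlapped over most of their range, with medians of −0.44 and −0.28. The 7 members with the YY1 core had a median of −0.37 and ranged from −1.06 for Atp5j2 to −0.02 for Ndufs7, and the other matched members had a median of −0.25.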

How the data were processed

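Poly-A RNA of 14 liver pools, 7 per group as given by the labels, was sequenced by the authors on the BGISEQ-500 platform in paired-end mode. The authors mapped clean reads with Bowtie2 to reference and newly assembled coding transcripts and counted them with RSEM; versions are not given in the sources used here. The deposited gene values are expected counts, 1 per gene and group, summed over the libraries and not normalized. The table also holds the authors' log2 ratio, p-value and q-value of their own comparison, which were not used. The deposited read counts and the percent of clean reads mapped to genes are per library.

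Ratios were computed as log2 of (count + 0.5) over the group total. Genes under 100 counts in the groups together were not called. Intervals are Clopper-Pearson at 95%. The design had allowed for gene counts per library and an edgeR test, which group sums do not permit. Members, lists and motifs were chosen with earlier results of these data known. All genes matched by the pattern could be named, with full values for the highest in level and the extremes of each complex, those past 1.5-fold, those under 100 counts and the tissue isoforms with their paralogues; in other lists, genes past 1.5-fold or the extremes. The copies of Ndufb4 and the X-linked genes were chosen after their values were seen. GC content and principal lengths are from GENCODE M21 coding transcripts, found for 98.4% of 13291 genes, and promoters from RefSeq on GRCm38.p6. The computation was tested on simulated data. Versions were 3.11.15 of Python, 1.17.1 of scipy, 2.3.3 of pandas, 3.10.9 of matplotlib and 2.4.6 of numpy. Alternatives were other folds, scalings, filters, pseudocounts and neighbours in length; neighbours in GC content, principal lengths and Ndufa4 in complex I were added after seeing the data. For 1 complex I gene, counted in the summaries, values are not reported here.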

Additional observations from a re-analysis of the deposited data

Results flagged for a closer look

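Control replicate 3 had 64.33% of its clean reads mapped to genes, far from the other 6 control libraries by Dixon's limit for 7 values (0.568). Of 8 groups of library values checked it was the only one, and chance flags about 1 in 20. Its share in the group sums of single genes could not be separated.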

How the results depend on the processing

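No paired analysis was possible because gene values are sums over the libraries of a group, and leaving out each replicate was not run for the same reason. The number of members that fell, 17 as reported, was 35 at the looser fold limit, 4 at 2-fold, 28 with the median of all genes at 0, 6 relative to genes of like length and 7 relative to genes of like length and GC content. The 28 include Ndufv2, a core subunit of complex I. The number that rose was 1 at the looser limit. The scaling by the median lowered every log2 ratio by 0.16, to a median of −0.44 over the members and −0.46 in complex I, with 68 members below 0 in place of 61. Leaving out the 50 genes of most counts from the totals lowered them by 0.10. With neighbours within a 4-fold range of counts, which could lie farther off in length, the median relative to the neighbours was −0.22 over the members. By complex it was −0.23 in I, −0.46 in III, −0.31 in IV and −0.13 in V. With neighbours in length and GC content the median was −0.07 over the members, −0.13 in complex I, −0.01 in II and −0.23 in IV. The summed level had a log2 ratio of −0.20 in CPM without length, with −0.29 for complex I, 0.079 for II, −0.31 for III, −0.37 for IV and −0.060 for V. Without the 50 genes of most counts, 23 members fell, and the medians were −0.0046 in complex II and −0.23 in complex V. With the median of all genes at 0 the latter were −0.07 and −0.29. The median of complex IV was −0.15 at a minimum of 10 counts or none, and 0.02 relative to like length at 10 counts. With 200 neighbours, 1000 neighbours or 20 classes of length, the medians of complexes relative to like length lay between −0.31 and 0.09, and that of complex V changed sign with the classes, to 0.01. Depth limits the 4 isoforms under 100 counts, and the spread between pools was not measured for any gene.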
